A study of Rattus norvegicus with 484 samples.

Results

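Tubgcp5, Nat8, Fn3k and Hes6 are genes of a rat array study of PPARA agonists. They were chosen by their measured liver ratios, which stood among the lowest under the 3 agonists, and were found by gene symbol. They are 4 of the 10210 genes that the platform table names, and they were read by 5 of 23653 probes, a pair of them for Fn3k and a single one for each of the others. All 5 probes had values in enough arrays to be tested in liver, soleus and quad. On the current rat assembly, GRCr8, Tubgcp5 lies on chromosome 1 (115772294 to 115807947), Nat8 on chromosome 4 (119836986 to 119837764), Fn3k on chromosome 10 (107198566 to 107214176) and Hes6 on chromosome 9 (99449375 to 99451343). Because low liver ratios under the agonists chose these genes, those ratios are given as a description, without a test. Tests are given for rosiglitazone, retinoic acid, differences between the agonists, the course over days and the muscles.

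PPARA is a nuclear receptor that pairs with RXR on DNA, and in rodent liver it switches on peroxisomal and mitochondrial fatty acid oxidation. Fibrates are lipid-lowering drugs that activate it. Its induced genes are well known, while the genes that go down under its agonists form a mixed group. Tubgcp5 encodes a subunit of the gamma-tubulin ring complex, from which microtubules grow. Nat8 encodes an N-acetyltransferase of the endoplasmic reticulum that acetylates cysteine conjugates, the closing step of mercapturic acid formation. Fn3k encodes fructosamine 3-kinase, which phosphorylates sugar adducts on proteins so that they fall off. Hes6 encodes a helix-loop-helix factor of the Hes family, which works with and against other Hes proteins in Notch signalling.

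On each array the RNA of 1 rat carried Cy5 and was read against Cy3-labelled RNA pooled from vehicle animals, matched for tissue and day. In liver, 14 arrays came from rats on fenofibrate at 400 mkd (the unit is written so in the labels), 15 on bezafibrate at 250 mkd, 15 on Wy-14643 at 100 mkd, 15 on rosiglitazone (a PPARG agonist) at 100 mkd, 15 on retinoic acid (a ligand of RAR) at 25 mkd and 73 on vehicle, on days 2 to 6. Soleus had 19, 20, 18, 20, 20 and 35 arrays in the same order and at the same doses, and the muscle that the labels call quad had 18, 20, 16, 16, 18 and 63. In a further muscle, EDL, the doses were 50 mkd of fenofibrate (9 arrays), 25 of bezafibrate (9), 10 of Wy-14643 (12), 10 of rosiglitazone (9, with 4 more at 100) and 2.5 of retinoic acid (11), and vehicle was present as the pool alone. The labels used here give no strain, sex or age. A ratio to a pool of the same tissue carries no level, so tissue identity could not be read from marker genes, and fewer cells of a type cannot be told apart from less RNA per cell.

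The deposited values centre on 0 and end at a 100-fold difference, from which a log10 ratio of rat over pool was inferred; no source used here states scale or direction, and under the opposite direction every sign below would turn. Array pairs of the same tissue and day correlated as low as -0.27 in liver and -0.65 in muscle, with 74 muscle pairs under -0.3. In 9 arrays the spread was more than 3 times that of the tissue, or liver markers stood over 2 log2 units above their day: 1 in liver, 5 in quad and 3 in soleus. Results that rest on them are given with and without them.

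The upstream sequences are shown because all 4 genes were low together under the agonists. Each is the 250 bases before the start site that RefSeq's promoter table gives on GRCr8, from 5′ to 3′ on the strand of the gene. For Tubgcp5 and Nat8 that site is the edge of the gene interval given above. For Fn3k it lies 386 bases inside that interval, at 107198952, and for Hes6 247 bases inside, at 99451096, so those windows lie wholly (Fn3k) or nearly wholly (Hes6) within the annotated gene. Capitals mark the half-site to which PPARA and related receptors bind (AGGTCA, either strand) and the TATA box (TATAAA, either strand).
Tubgcp5, chr1:115772044-115772293, plus strand: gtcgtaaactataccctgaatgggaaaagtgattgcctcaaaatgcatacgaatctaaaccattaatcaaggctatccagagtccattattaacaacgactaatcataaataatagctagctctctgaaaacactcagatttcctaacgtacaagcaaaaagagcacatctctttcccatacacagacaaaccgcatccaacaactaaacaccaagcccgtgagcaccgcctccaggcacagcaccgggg
Nat8, chr4:119837765-119838014, minus strand: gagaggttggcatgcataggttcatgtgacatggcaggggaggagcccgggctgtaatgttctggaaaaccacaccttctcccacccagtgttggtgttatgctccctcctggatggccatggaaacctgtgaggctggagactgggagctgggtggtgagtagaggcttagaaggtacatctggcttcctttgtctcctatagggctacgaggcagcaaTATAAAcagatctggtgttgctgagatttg
Fn3k, chr10:107198702-107198951, plus strand: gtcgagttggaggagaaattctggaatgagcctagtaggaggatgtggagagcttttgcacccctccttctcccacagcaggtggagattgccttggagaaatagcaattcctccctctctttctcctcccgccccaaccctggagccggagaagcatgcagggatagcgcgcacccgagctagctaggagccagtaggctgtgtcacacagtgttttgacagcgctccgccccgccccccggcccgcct
Hes6, chr9:99451097-99451346, minus strand: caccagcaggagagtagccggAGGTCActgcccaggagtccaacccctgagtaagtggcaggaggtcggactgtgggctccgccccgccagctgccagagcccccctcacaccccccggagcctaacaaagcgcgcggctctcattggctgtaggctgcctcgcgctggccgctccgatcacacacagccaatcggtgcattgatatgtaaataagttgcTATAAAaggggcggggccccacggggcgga

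Of these windows, that of Hes6 held the half-site, at positions -229 to -224 counted from that start site, and 14.1% of all 33469 upstream windows of the same length held it on either strand. None of the 4 held the direct repeat of it spaced by 1 base, which 0.0508% of all windows held. Nat8 and Hes6 each carried a TATA box at positions -30 to -25, as against 12.9% of windows with one anywhere. The GC content was 43.2% for Tubgcp5, 52.8% for Nat8, 59.6% for Fn3k and 64.0% for Hes6, beside a median of 51.2%. These matches describe the letters of short windows and say nothing of binding.

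Tubgcp5 had the lowest median liver ratio of the 4 genes under fenofibrate and Wy-14643. On log2 scale, a ratio to the pool of 0 is no difference, and the 73 vehicle livers had a median of 0.07, from -4.21 to 0.76. The 14 fenofibrate livers ran from -3.90 to -1.38 with a median of -2.70, and the 15 Wy-14643 livers from -3.21 to -1.004 with a median of -2.74. Bezafibrate livers were less low, from -2.58 to -0.02 with a median of -1.26. Set against vehicle livers of the same day and averaged over days, Tubgcp5 was lower by 2.49 ± 0.22 log2 units (SE) with fenofibrate, a 5.63-fold difference. The value was -0.95 ± 0.21 with bezafibrate and -2.35 ± 0.21 with Wy-14643. All fenofibrate and all Wy-14643 livers lay below the mean of the same-day vehicle livers, as did 13 of 15 bezafibrate livers.

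A few vehicle rats also had very low Tubgcp5. Vehicle rats 1046 (day 4) and 1060 (day 5) had ratios of -4.21 and -3.90, lower than any treated liver of those days. Vehicle rat 1054 (day 5) stood at -2.52. Over all days, 21 of 44 agonist livers lay below every vehicle liver of their day and 42 of 44 below the vehicle mean.

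Nat8 varied widely among untreated animals. Its 73 vehicle livers ran from -2.58 to 1.05 with a median of 0.06, and their SD within days was 0.85, beside 0.84 for Tubgcp5. Fenofibrate livers ran from -3.23 to 1.00 (median -1.71), bezafibrate livers from -2.30 to 0.30 (median -1.64) and Wy-14643 livers from -3.42 to -0.16 (median -1.96). The differences from vehicle were -1.36 ± 0.26, -1.19 ± 0.25 and -1.67 ± 0.25. The groups overlapped: 22 of 44 agonist livers lay below every vehicle liver of their day, and 41 of 44 below the vehicle mean.

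Fn3k had the least overlap of the 4 genes between agonist and vehicle livers. Vehicle livers ran from -0.84 to 0.70 with a median of -0.03 and an SD within days of 0.31. Fenofibrate livers ran from -2.05 to -0.51 (median -1.30), bezafibrate livers from -1.84 to -0.46 (median -1.18) and Wy-14643 livers from -2.37 to -1.07 (median -1.58). The differences from vehicle were -1.30 ± 0.11, -1.16 ± 0.10 and -1.63 ± 0.10, that is 2.46-fold, 2.24-fold and 3.09-fold lower. Of the 44 agonist livers, 41 lay below every vehicle liver of their day and all 44 below the mean, and Wy-14643 livers did not overlap with vehicle at all. The pair of Fn3k probes gave -1.33 ± 0.07 and -1.40 ± 0.07 over the 3 agonists.

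Hes6 ran from -1.26 to 0.90 in vehicle livers, with a median of -0.07 and an SD within days of 0.53. Its medians were -1.15 with fenofibrate (from -2.18 to 0.04), -1.30 with bezafibrate (from -2.25 to -0.47) and -1.78 with Wy-14643 (from -2.37 to -1.04). The differences from vehicle were -1.08 ± 0.18, -1.18 ± 0.17 and -1.64 ± 0.17. Here 35 of 44 agonist livers lay below every vehicle liver of their day, and 42 of 44 below the mean. Fenofibrate rats 1150 (day 4) and 1155 (day 5), at 0.04 and 0.01, had Hes6 at the vehicle level while Tubgcp5 stood at -2.83 and -2.85 in the same livers.

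**Figure D1:**
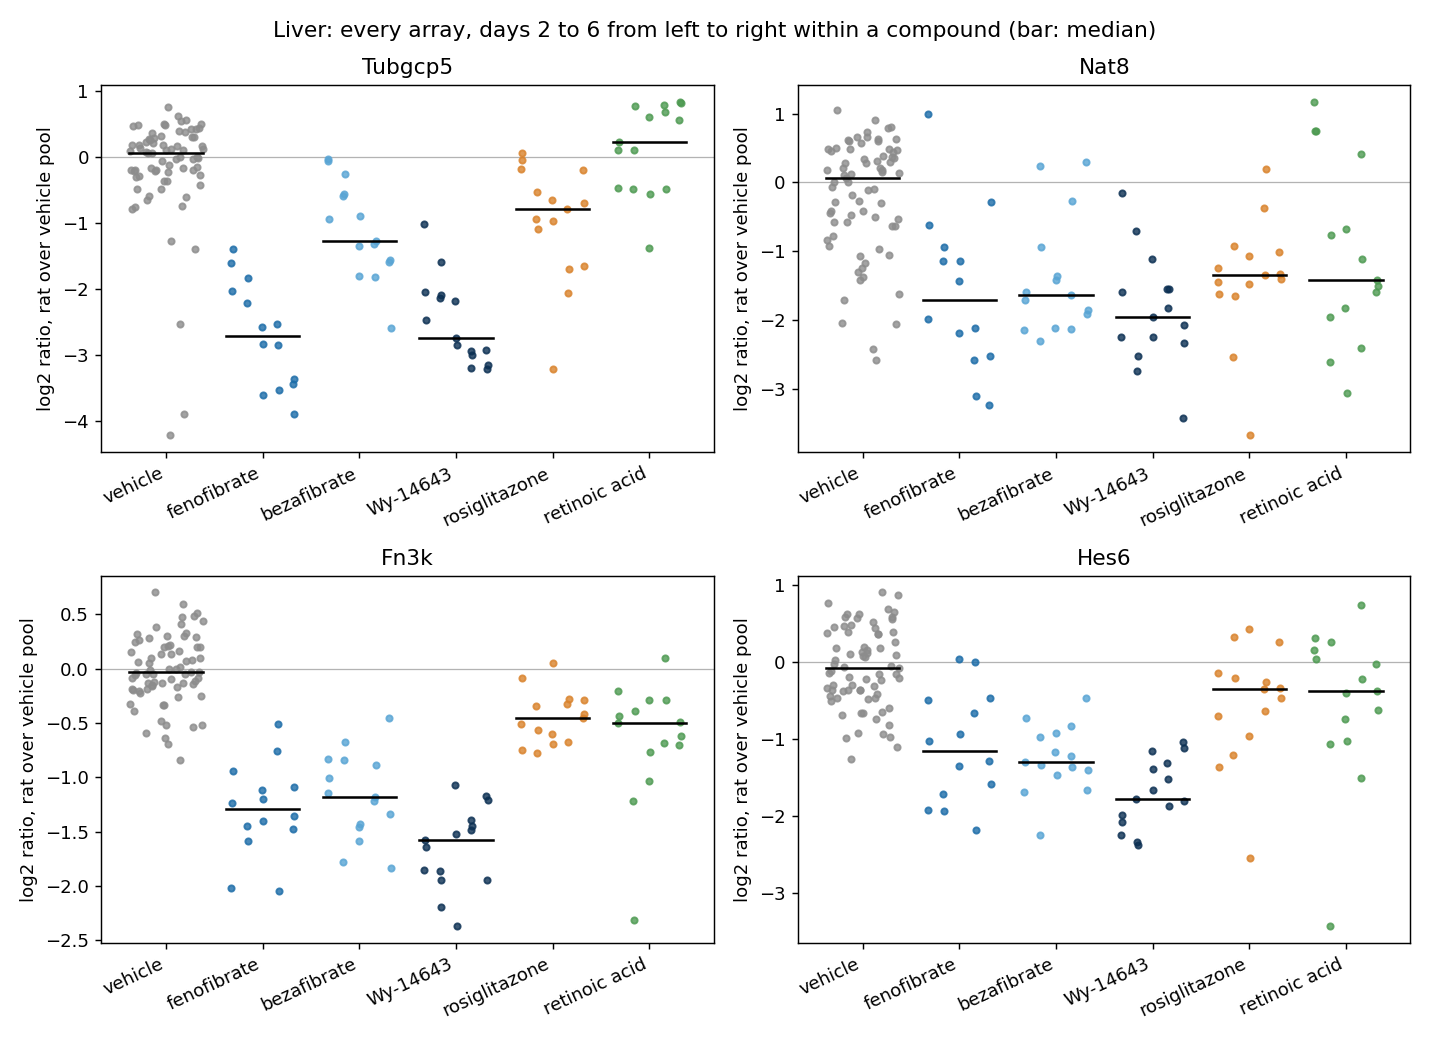
Log2 ratio of each liver to its vehicle pool (y axis) for the 4 genes, by compound (x axis); within a compound, points run from day 2 on the left to day 6 on the right, and bars are medians. Fn3k shows the cleanest gap between vehicle (lowest -0.84) and Wy-14643 livers (highest -1.07), while 3 vehicle livers reach -2.52 or lower for Tubgcp5.

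Averaged over the 3 agonists, the differences were -1.93 ± 0.14 for Tubgcp5, -1.41 ± 0.17 for Nat8, -1.36 ± 0.07 for Fn3k and -1.30 ± 0.12 for Hes6 (n = 44 treated and 73 vehicle livers). Among 18384 features tested, these stood at places 2, 8, 9 and 11 from the lowest. Of all features 45.5% passed an adjusted p of 0.05 with limma in this comparison, 23.9% in the lower direction, and nothing is read from the members here. With the single agonists 37% (fenofibrate), 21.3% (bezafibrate) and 40.2% (Wy-14643) passed. For scale, known PPARA targets in the same livers were higher by 3.11 ± 0.22 for the thioesterase Acot1, 2.62 ± 0.12 for the peroxisomal enzyme Ehhadh, 1.94 ± 0.09 for the fatty acid hydroxylase Cyp4a1 and 1.65 ± 0.08 for the kinase Pdk4. Of 19 measured PPARA targets 17 rose and none fell (median 0.89, beside -0.002 over all features). With rosiglitazone 6 rose and 1 fell, where 22.7% of all features passed and 12.4% passed as lower. With retinoic acid 1 rose and 10 fell, where 29.2% of all features passed and 15% passed as lower.

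All 4 genes lay below the same-day vehicle mean in 15 of 15 Wy-14643 livers, 11 of 14 fenofibrate livers and 11 of 15 bezafibrate livers, and in 8 of 15 rosiglitazone and 4 of 15 retinoic acid livers. Below every same-day vehicle liver, the count depended on the day: on days 4 and 5, vehicle rats 1046 and 1060 had lower Tubgcp5 than any treated liver, so no liver of those days could have all 4 low. On the other days all 4 were low in this way in 6 of 9 Wy-14643 livers, 2 of 8 fenofibrate livers and 1 of 9 bezafibrate livers. Over all days, at least 3 of them were low in 11, 9 and 8 livers. With rosiglitazone and with retinoic acid no liver of 9 on those days had all 4, and 2 of 15 over all days had at least 3. The genes were chosen by low ratios in the agonist livers, so higher counts there than with these 2 compounds follow from the choice. Counts of livers below vehicle, here and above, were not made over all features.

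**Figure D2:**
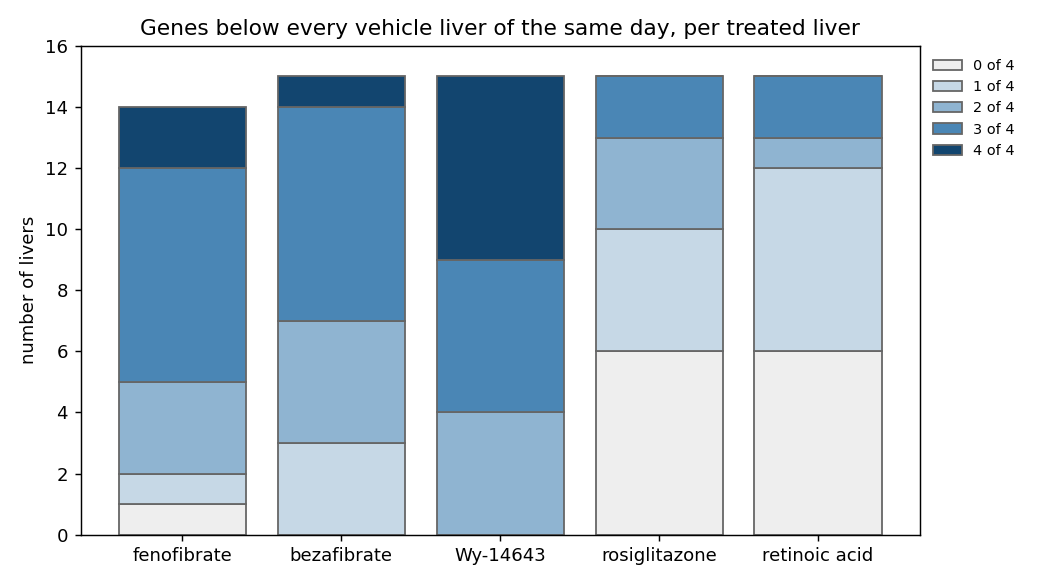
Number of treated livers (y axis) by compound (x axis), split by how many of the 4 genes lay below every vehicle liver of the same day. Wy-14643 has 6 livers with all 4 genes low, and rosiglitazone and retinoic acid have 6 livers each with none. On days 4 and 5 a vehicle liver was lowest for Tubgcp5, so the count could not reach 4 there. The genes were chosen by low ratios under the PPARA agonists, so higher counts with these follow from the choice.

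The agonists differed on Tubgcp5. These differences, and the slopes over days, were tested on the same agonist livers whose mean chose the genes, so they are not independent of the choice. Fenofibrate lowered it further than bezafibrate, by -1.54 ± 0.27 (95% interval -2.08 to -1.003; limma, adjusted p = 6.9e-06), where 19.8% of all features passed. For Nat8 the difference was -0.17 (-0.81 to 0.48, adjusted p = 0.77), for Fn3k -0.14 (-0.40 to 0.13, adjusted p = 0.52) and for Hes6 0.10 (-0.35 to 0.55, adjusted p = 0.81). Differences of those sizes were therefore not resolved. Doses were not matched, at 400 and 250 mkd, and no liver dose series was measured.

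Wy-14643, at 100 mkd, gave lower ratios than the mean of both fibrates for Fn3k, by 0.40 ± 0.11 (0.17 to 0.62; adjusted p = 0.013), with 9.03% of features passing. That call ended without day 2 (adjusted p = 0.072), without day 3 (adjusted p = 0.089) and without Wy-14643 rat 1208 (adjusted p = 0.061). The fibrate mean was higher than Wy-14643 by 0.62 ± 0.23 for Tubgcp5 (adjusted p = 0.075), 0.51 ± 0.19 for Hes6 (adjusted p = 0.085) and 0.40 ± 0.28 for Nat8 (adjusted p = 0.46), none of which passed. Tubgcp5 passed when vehicle rat 1046 (adjusted p = 0.032), vehicle rat 1060 (adjusted p = 0.039) or Wy-14643 rat 1197 (adjusted p = 0.047) was left out, and Hes6 without fenofibrate rat 1156 (adjusted p = 0.041).

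Tubgcp5 ratios under the agonists were lower on day 6 than on day 2, with different rats on each day. With fenofibrate the 3 rats of day 2 had ratios of -1.60, -2.03 and -1.38, and those of day 6 had -3.43, -3.90 and -3.36. With bezafibrate the ratios were -0.06, -0.02 and -0.93 on day 2, and -1.58, -1.55 and -2.58 on day 6. With Wy-14643 they were -1.004, -2.05 and -2.46 on day 2, and -2.92, -3.21 and -3.15 on day 6. For each of the 3 agonists, the day-6 rats were all below the day-2 rats of the same compound. Such a separation was not counted over all features, and the slope of no single agonist passed, as given next.

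Against same-day vehicle, Tubgcp5 with fenofibrate was at -1.56 on day 2, -2.03 on day 3, -2.70 on day 4, -2.60 on day 5 and -3.58 on day 6. On these same livers, the slope of the agonist mean was -0.41 ± 0.10 log2 units per day (limma, adjusted p = 0.020), where 0.838% of all features passed. The slopes of the single compounds were -0.46 for fenofibrate (adjusted p = 0.12), -0.40 for bezafibrate (adjusted p = 0.38) and -0.35 for Wy-14643 (adjusted p = 0.49), where 0.446%, 0.0598% and 0.158% of features passed. The call on the agonist slope ended without day 2 (adjusted p = 0.39), day 3 (0.071) or day 6 (0.64), each of which leaves 4 days, and without Wy-14643 rat 1197 (adjusted p = 0.051). It held without vehicle rat 1046 (adjusted p = 0.0041) and without vehicle rat 1060 (adjusted p = 0.0037), the lowest for Tubgcp5.

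No slope passed for the other genes. It was -0.19 ± 0.12 per day for Nat8 (adjusted p = 0.55), 0.02 ± 0.05 for Fn3k (adjusted p = 0.94) and 0.10 ± 0.08 for Hes6 (adjusted p = 0.68). Fn3k with fenofibrate was already at -1.35 on day 2 and stood at -1.34 on day 6. Hes6 with Wy-14643 was at -2.04 on day 2 and -1.33 on day 6. Nat8 with fenofibrate ran from -0.41 on day 2 to -2.35 on day 5 and -1.91 on day 6, and its own slope of -0.45 ± 0.18 did not pass (adjusted p = 0.24).

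**Figure D3:**
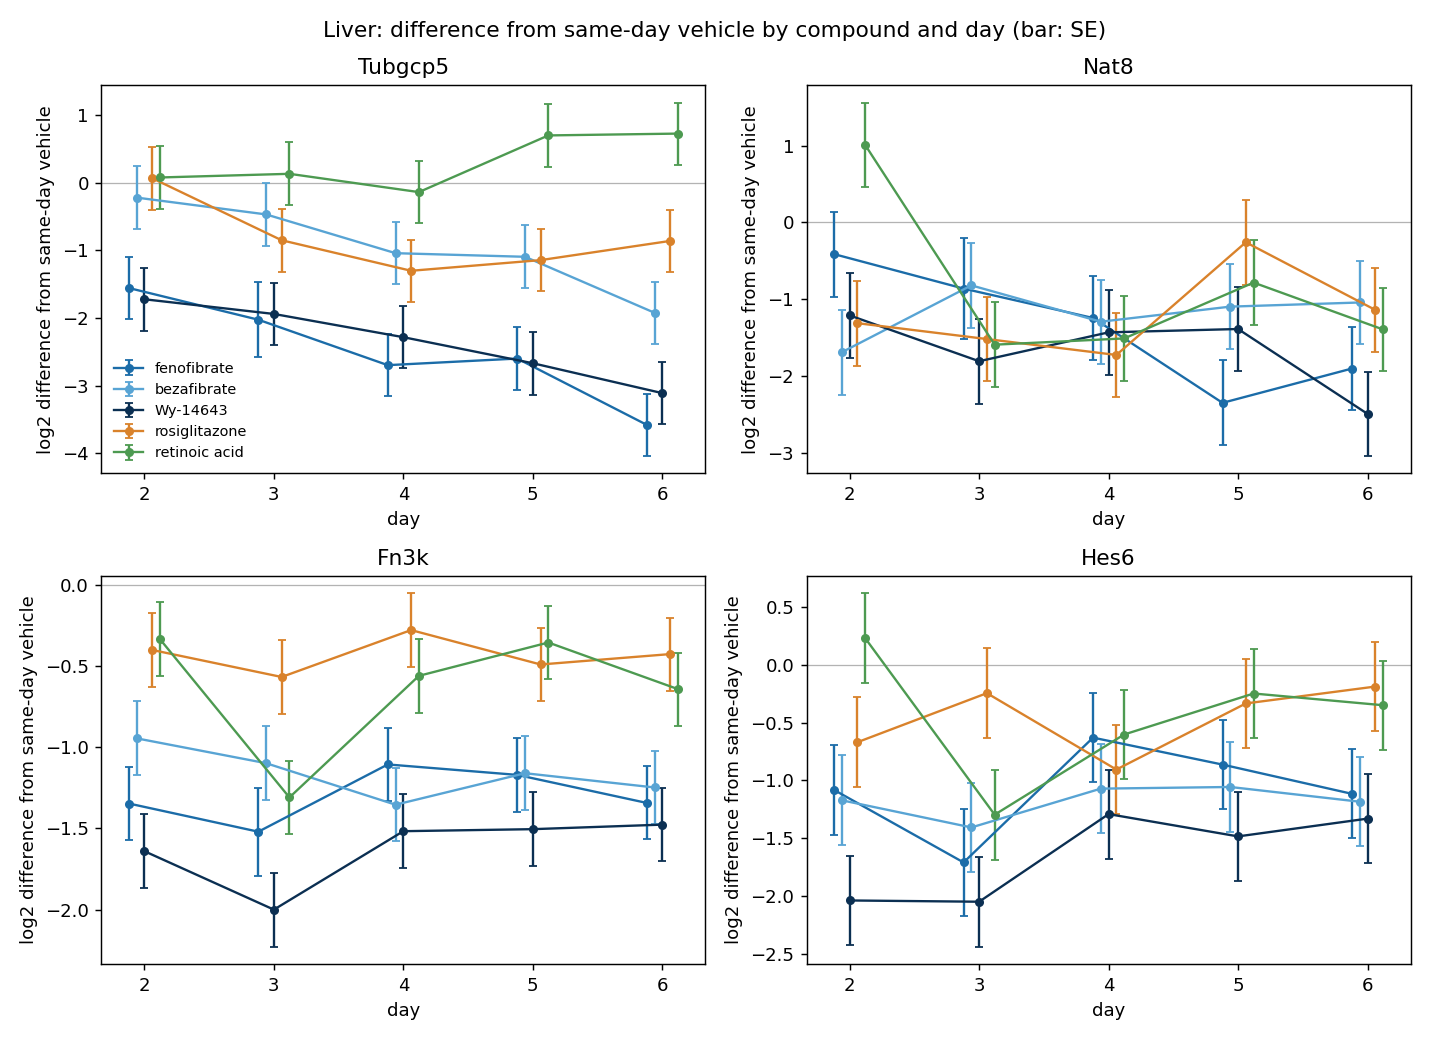
Difference from same-day vehicle livers in log2 units (y axis) by day (x axis), with 1 line per compound; bars are SE. The 3 PPARA agonists run downward for Tubgcp5, from between -0.22 and -1.72 on day 2 to between -1.92 and -3.58 on day 6, whereas Fn3k stays between -2.0005 and -0.945 for these 3.

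Rosiglitazone, which acts on PPARG, lowered Tubgcp5, Nat8 and Fn3k in liver, and Hes6 passed only with a doubted array included, where 22.7% of all features passed and 12.4% passed as lower. The vehicle livers are those of the comparison that chose the genes, so these tests are not independent of it on the vehicle side. Nat8 ran from -3.67 to 0.20 over 15 rosiglitazone livers with a median of -1.35, and fell by 1.19 ± 0.25 (adjusted p = 0.00021), with 14 of 15 livers below the vehicle mean. Tubgcp5 ran from -3.21 to 0.07 with a median of -0.79 and changed by -0.82 ± 0.21 (adjusted p = 0.0024), with 13 of 15 livers below the mean. On day 2 its difference from vehicle was 0.07, and from day 3 on it lay between -1.30 and -0.85.

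Fn3k changed by -0.43 ± 0.10 with rosiglitazone (adjusted p = 0.0011; median -0.46, from -0.78 to 0.05), with 14 of 15 livers below the vehicle mean. Hes6 changed by -0.47 ± 0.17 (adjusted p = 0.038; median -0.36, from -2.54 to 0.43), with 12 of 15 below. The lowest values of Nat8, Tubgcp5 and Hes6 and the highest of Fn3k came from a single liver, rat 1376 of day 4. The spread of that array was 4.55 times the median of liver arrays. Its hepatocyte markers stood 2.28 log2 units below, and its skeletal muscle markers 1.71 above, the other livers of its day.

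Without rat 1376 the call on Hes6 with rosiglitazone ended, at -0.32 (adjusted p = 0.20). Tubgcp5 was then at -0.66 (adjusted p = 0.017), Nat8 at -1.03 (adjusted p = 0.0014) and Fn3k at -0.48 (adjusted p = 0.00037), so 3 of the 4 genes passed. The Hes6 call also ended on leaving out any of rats 1365, 1367, 1369, 1379, 1383 or 1384, with adjusted p from 0.051 to 0.11.

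With retinoic acid, Nat8, Fn3k and Hes6 passed as lower and Tubgcp5 did not pass. Differences between the genes were not tested, and the calls on Nat8 and Hes6 did not hold under all alternatives, as given below. Nat8 fell by 0.86 ± 0.25 (limma, adjusted p = 0.0042), Fn3k by 0.64 ± 0.10 (adjusted p = 1.3e-07) and Hes6 by 0.45 ± 0.17 (adjusted p = 0.037), while Tubgcp5 stood at 0.30 ± 0.21 (adjusted p = 0.30). In this comparison 29.2% of all features passed, 15% as lower, against the same vehicle livers. Tubgcp5 ran from -1.38 to 0.85 with a median of 0.24, and 6 of 15 livers lay above every vehicle liver of their day. Counts of livers above vehicle, here and in the next paragraph, were not made over all features, and the Tubgcp5 difference itself did not pass. On day 6 its 3 rats were at 0.56, 0.85 and 0.83, where the highest vehicle liver was at 0.50.

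Nat8 under retinoic acid was high on day 2 and low afterwards. The 3 rats of day 2 had ratios of 1.18, 0.75 and 0.74, where the highest vehicle liver of that day was at 1.05, so that 1 of the 3 lay above it. From day 3 on, 11 of 12 rats were below 0, from -3.06 to -0.67, with rat 1323 (day 5) at 0.41. The difference from vehicle was 1.01 ± 0.55 on day 2 and -1.59 ± 0.55 on day 3. The linear slope, -0.40 ± 0.17 per day, did not pass (adjusted p = 0.13), where 9.38% of features did. Without day 2 the difference was -1.32 (adjusted p = 0.00014), and without day 3 it was -0.67 and no longer passed (adjusted p = 0.069).

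Fn3k and Hes6 were lowest with retinoic acid on day 3, at -1.31 ± 0.23 and -1.30 ± 0.39 against vehicle. Rat 1314 carried much of this, with a ratio of -2.31 for Fn3k and -3.43 for Hes6, while rat 1316 of the same day had -0.39 and 0.26. Without rat 1314 the Hes6 call with retinoic acid ended (-0.25, adjusted p = 0.29). It also ended without rats 1312, 1320, 1322, 1326 or 1327, with adjusted p from 0.050 to 0.16. Fn3k passed on leaving out any single treated liver (adjusted p at most 7.1e-06).

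Among the other liver genes, Tubgcp5 followed the apolipoprotein gene Apoa4 most closely. Likeness was measured as Pearson's r over 25 liver differences (5 compounds on 5 days), which share the vehicle livers of each day and are given as a description. Tubgcp5 and Apoa4 had r = 0.97, and Apoa4 was at -1.78 over the agonists, -0.82 with rosiglitazone and 0.33 with retinoic acid, beside -1.93, -0.82 and 0.30 for Tubgcp5. Next came Dio1, a deiodinase of thyroid hormone (0.88), and the tRNA methyltransferase Trmt44 (0.88). Apoa4 lies on chromosome 8 and has 3 probes, and Tubgcp5 lies on chromosome 1.

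The vehicle livers, which received no compound, gave a check over single rats. Over 73 vehicle livers with day means subtracted, Tubgcp5 and Apoa4 had r = 0.50 and rho = 0.45 (permutation test over 12 pairs, adjusted p = 0.00067 and 0.00021), and r = 0.66 without the 2 livers farthest from the median. Those livers, rats 1046 and 1060, had Apoa4 at -0.65 and -0.07 beside -4.21 and -3.90 for Tubgcp5. Vehicle rat 1054 had both low, at -2.17 and -2.52. By the same permutation test Dio1 had r = 0.03 and rho = -0.015 with Tubgcp5 (adjusted p = 0.81 and 0.90). Trmt44 had r = 0.49 and rho = 0.44 (adjusted p = 0.00014 and 0.00018), so the likeness held for Apoa4 and Trmt44 but not for Dio1. Probe sequences were not used here, and whether the Tubgcp5 probe also takes up RNA of another gene was not tested.

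Nat8 followed its own gene family. Over the 25 differences it had r = 0.93 with Nat8b, 0.78 with Nat8f5 and 0.78 with the sugar phosphate transporter Slc37a2. Over the 73 vehicle livers the values were r = 0.95 and rho = 0.94 for Nat8b (adjusted p = 2.4e-05 for each, from 1e-05, the smallest the permutations can give), 0.88 and 0.82 for Nat8f5, and 0.67 and 0.73 for Slc37a2. Leaving out the 2 farthest livers gave 0.93, 0.88 and 0.70. Nat8, Nat8b and Nat8f5 lie on chromosome 4 of GRCr8, with Nat8b at 119916909 to 119923544. The interval of Nat8f5 (119817788 to 119842503) contains that of Nat8. These genes belong to a family of similar copies. Whether the probes tell the copies apart was not tested, so the values of each copy are uncertain. Nat8b was at -0.86 over the agonists, -0.56 with rosiglitazone and -0.55 with retinoic acid, smaller than Nat8 in each.

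**Figure D4:**
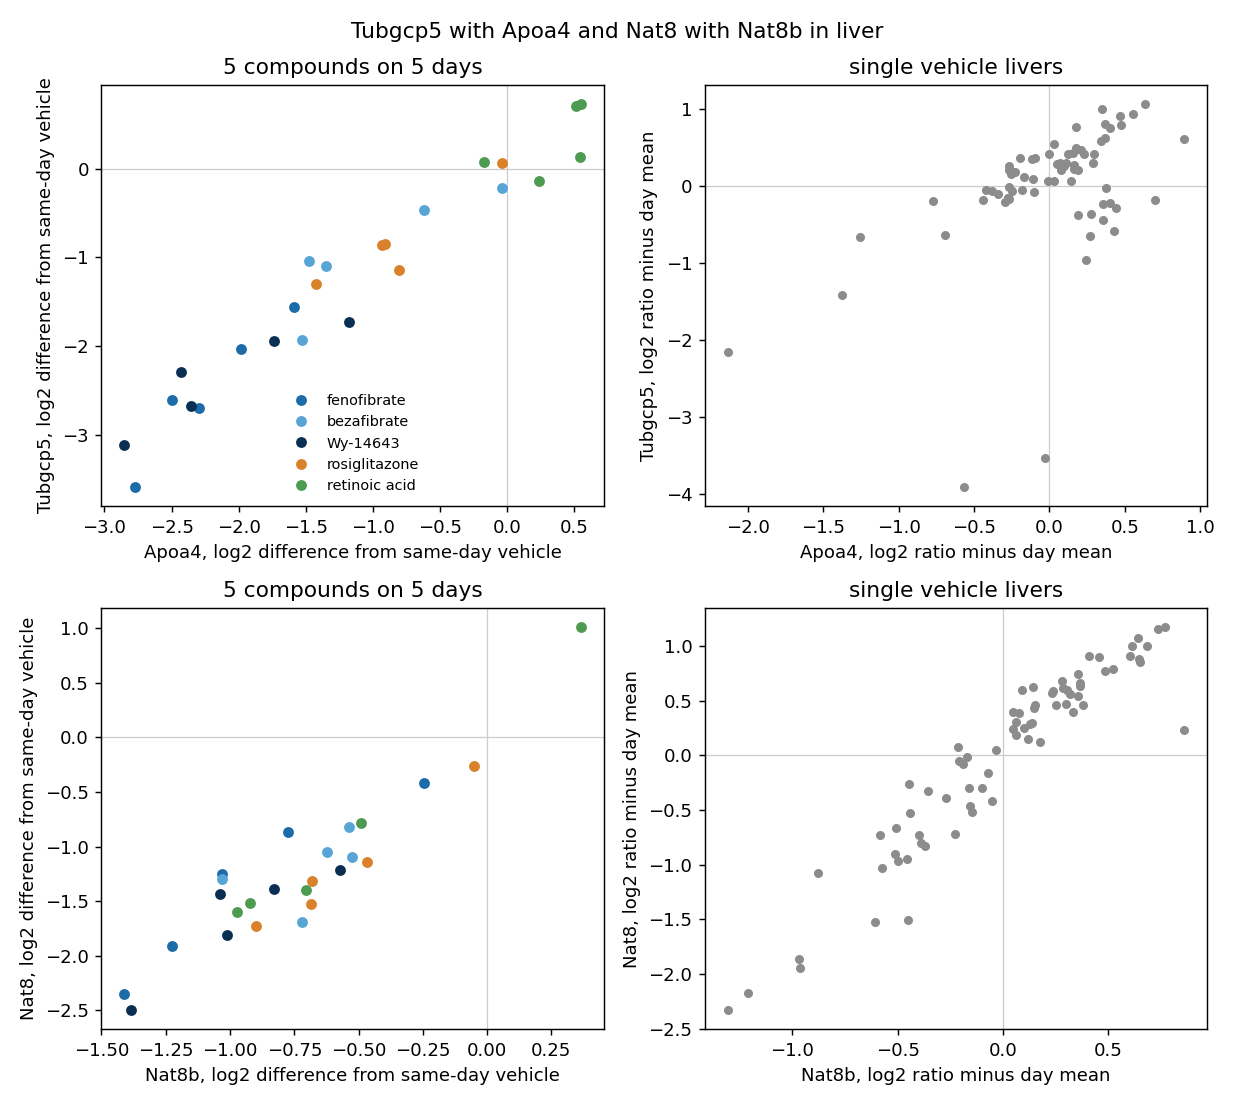
Tubgcp5 (top, y axis) against Apoa4 and Nat8 (bottom, y axis) against Nat8b, as log2 differences from same-day vehicle for 5 compounds on 5 days (left) and as log2 ratios minus the day mean in 73 single vehicle livers (right). Points follow 1 line on the left (r = 0.97 and 0.93); on the upper right, vehicle rats 1046 and 1060 stand away from it.

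Fn3k and Hes6 had the most similar courses within the group, with r = 0.87 over the 25 differences. Tubgcp5 and Fn3k had 0.64, and the other pairs lay between 0.35 and 0.49. In the vehicle livers Fn3k and Hes6 had r = 0.36 and rho = 0.35 (permutation test over 6 pairs, adjusted p = 0.0063 and 0.0073; 0.30 without the 2 farthest livers). The strongest pair there was Nat8 and Fn3k, with r = 0.54 and rho = 0.49 (adjusted p = 0.00012 and 6e-05; 0.50 without the 2 farthest). Tubgcp5 and Fn3k had r = -0.13 (adjusted p = 0.52) and rho = -0.29 (adjusted p = 0.028), and r was -0.01 without the 2 farthest livers.

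The genes nearest to Fn3k over the 25 differences were Atosa (0.83), Pbxip1 (0.83) and Lrrc47 (0.82). Those nearest to Hes6 were Lrrc47 (0.84), the chloride channel Clcn2 (0.82) and Nabp1, a single-stranded DNA binding protein (0.80). In vehicle livers Hes6 had r = 0.60 and rho = 0.67 with Lrrc47 and r = 0.59 and rho = 0.55 with Nabp1 (adjusted p = 2.4e-05 for each). Fn3k had r = 0.21 and rho = 0.25 with Lrrc47 (permutation test over 12 pairs, adjusted p = 0.081 and 0.041). With Pbxip1 it had r = 0.32 and rho = 0.37 (adjusted p = 0.0083 and 0.0022). With Atosa it had r = 0.25 and rho = 0.11 (adjusted p = 0.039 and 0.37).

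Genes of the same pathways were listed for each member. Of 7 measured partners of Tubgcp5 in the gamma-tubulin complex, 3 rose and none fell over the 3 agonists, with a median of -0.01, where 45.5% of all features passed in either direction. The ring component Tubgcp2 was at 0.08 ± 0.03, the centrosomal recruiter Nedd1 at 0.42 ± 0.07 and the anchor protein Akap9 at 0.07 ± 0.02. With retinoic acid, where 29.2% of all features passed, Nedd1 rose by 1.32 ± 0.10 and Tubg1, gamma-tubulin itself, by 0.45 ± 0.04. No partner fell with rosiglitazone, where 22.7% of all features passed and of the partners only Nedd1 did, at 0.28 ± 0.10.

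Of 26 measured genes of glutathione conjugation and mercapturate formation, 3 rose and 8 fell over the agonists (median -0.02), beside the same 45.5% of all features. The falls included Nat8b (-0.86 ± 0.10), Nat8f5 (-0.75 ± 0.15), the cysteine conjugate lyase Kyat1 (-0.30 ± 0.04) and the aminoacylase Acy3 (-0.27 ± 0.07). The rises were the glutathione transferases Gsta3 (0.35 ± 0.10), Gstm1 (0.22 ± 0.07) and Gstm2 (0.27 ± 0.04). With rosiglitazone, where 22.7% of all features passed, 1 rose and 6 fell, including Acy1 (-0.34 ± 0.07) and Nat8f5 (-1.09 ± 0.23). With retinoic acid, where 29.2% passed, 2 rose and 9 fell, among them Gstm1 (-0.85 ± 0.10) and Mgst2 (-0.65 ± 0.09).

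Of 9 measured genes of deglycation, glyoxal and fructose handling, 2 rose and 5 fell over the agonists (median -0.06), beside 45.5% of all features passing and 23.9% passing as lower. The sugar reductase Akr1b1 fell by 0.33 ± 0.06 and Dcxr by 0.25 ± 0.05, and the glyoxalase Hagh rose by 0.31 ± 0.05. With bezafibrate alone, where 21.3% of all features passed, Dcxr passed (-0.34 ± 0.08), while Akr1b1 (-0.21) and Hagh (0.04) did not. Ketohexokinase, Khk, was at -0.18 ± 0.06 with the agonists and -0.47 ± 0.09 with rosiglitazone.

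Of 16 measured genes of the Notch pathway and Hes family, 3 rose and 6 fell over the agonists (median -0.01), again beside 45.5% of all features. Hes1, the main Notch target of the family, rose by 0.57 ± 0.07 and Hes2 by 0.37 ± 0.05, opposite in sign to Hes6. The ligand Dll1 fell by 0.30 ± 0.05, the receptor Notch2 by 0.17 ± 0.03 and the receptor Notch1 by 0.15 ± 0.04. With bezafibrate alone Dll1 (-0.02), Notch2 (-0.11) and Notch1 (-0.02) did not pass, where 21.3% of all features did. With retinoic acid 3 rose and 2 fell, where 29.2% of all features passed: Hes5 rose by 0.20 ± 0.03 and Notch4 by 0.38 ± 0.07, and Notch1 fell by 0.21 ± 0.06 and Neurod1 by 0.26 ± 0.06.

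Marker genes of liver cell types moved in the same arrays, where 45.5% of all features passed over the agonists, 23.9% as lower, and 22.7% passed with rosiglitazone. Over the agonists 2 of 4 tested hepatocyte markers fell (Apoa1 by 0.55 and Ttr by 0.62), as did 4 of 5 of Kupffer cells and 4 of 4 of endothelium, and 6 of 6 proliferation markers rose (0.19 to 0.59). Bezafibrate taken alone, where 21.3% of all features passed, did not share all of these shifts. No endothelial or proliferation marker passed with it (proliferation from -0.03 to 0.29), and of the Kupffer markers only C1qa did (-0.32 ± 0.10). Of stellate cell markers 2 of 6 fell, and 1 of 4 cholangiocyte and 1 of 8 skeletal muscle markers rose. With rosiglitazone 4 of 8 skeletal muscle markers rose, in a group that includes rat 1376, and no hepatocyte or proliferation marker passed. The mean ratio of the hepatocyte list ran from -0.42 to 0.42 in vehicle livers, -0.77 to 0.18 with fenofibrate, -0.53 to 0.06 with bezafibrate and -0.60 to -0.08 with Wy-14643. With retinoic acid it ran from -1.13 to -0.35, and Alb was at -1.53 ± 0.18. The part of these shifts in the results on the 4 genes was not tested.

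In muscle none of the 4 genes passed over the 3 agonists. Over the 3 agonists in soleus the differences were 0.01 ± 0.05 for Tubgcp5 (adjusted p = 0.95), -0.15 ± 0.07 for Nat8 (adjusted p = 0.23), -0.11 ± 0.09 for Fn3k (adjusted p = 0.49) and -0.08 ± 0.07 for Hes6 (adjusted p = 0.47), where 1.96% of all features passed. The 95% intervals reached no lower than -0.30, for Nat8. In quad they were 0.07 ± 0.02 (adjusted p = 0.093), -0.02 ± 0.04 (adjusted p = 0.84), -0.01 ± 0.04 (adjusted p = 0.97) and -0.10 ± 0.04 (adjusted p = 0.17), where 0.841% passed, and the lowest bound was -0.17, for Hes6.

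Single muscle arrays overlapped with vehicle. Fn3k in quad ran from -0.59 to 0.72 with vehicle, -0.46 to 0.36 with fenofibrate, -0.45 to 0.37 with bezafibrate and -0.36 to 0.19 with Wy-14643, so that the ranges overlapped throughout. In soleus 8 of 57 agonist arrays had Fn3k below every vehicle array of their day, and in quad 2 of 54, beside 41 of 44 in liver. Nat8 in soleus lay below the vehicle mean in 46 of 57 agonist arrays. Such counts were not made over all features. Vehicle soleus rat 1034 (day 4) had Nat8 at 2.28, with hepatocyte markers 4.70 log2 units above its day. The vehicle arrays of that day had a mean of -0.24 and a median of -0.50. The day-4 difference from vehicle was between -0.31 and -0.46 with the agonists, -0.38 with rosiglitazone and -0.51 with retinoic acid. Without the doubted arrays Nat8 in soleus was at -0.13 over the agonists and passed (limma, adjusted p = 0.0065). Over the alternatives, 0.484% to 14.7% of all features passed in that comparison.

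The difference between soleus and quad in the agonist mean did not pass for any of the 4 genes, at -0.06 for Tubgcp5, -0.13 for Nat8, -0.10 for Fn3k and 0.02 for Hes6 (adjusted p from 0.34 to 0.92), and 0.267% of all features passed. Among single compounds in soleus and quad, 1 of 40 differences passed, Hes6 with bezafibrate in quad (-0.17 ± 0.05, adjusted p = 0.038), where 1.63% of features passed. Taken singly, the Fn3k probes differed in soleus with retinoic acid. The first was at -0.37 ± 0.10 and passed (limma, adjusted p = 0.023), and the other was at -0.15 ± 0.15 (adjusted p = 0.60). In soleus 3.33% of features passed with fenofibrate, 0.904% with bezafibrate, 0.191% with Wy-14643, 2.63% with rosiglitazone and 2.85% with retinoic acid. In quad 5.69% passed with fenofibrate, 0.0163% with Wy-14643, 6.86% with rosiglitazone and 2.42% with retinoic acid. The Hes6 call ended without bezafibrate rat 1256 of day 2 (-0.14, adjusted p = 0.19), whose array had 3.92 times the usual spread, and on leaving out 9 others of the 20 rats singly (1257, 1258, 1259, 1262, 1263, 1264, 1265, 1266 and 1272).

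**Figure D5:**
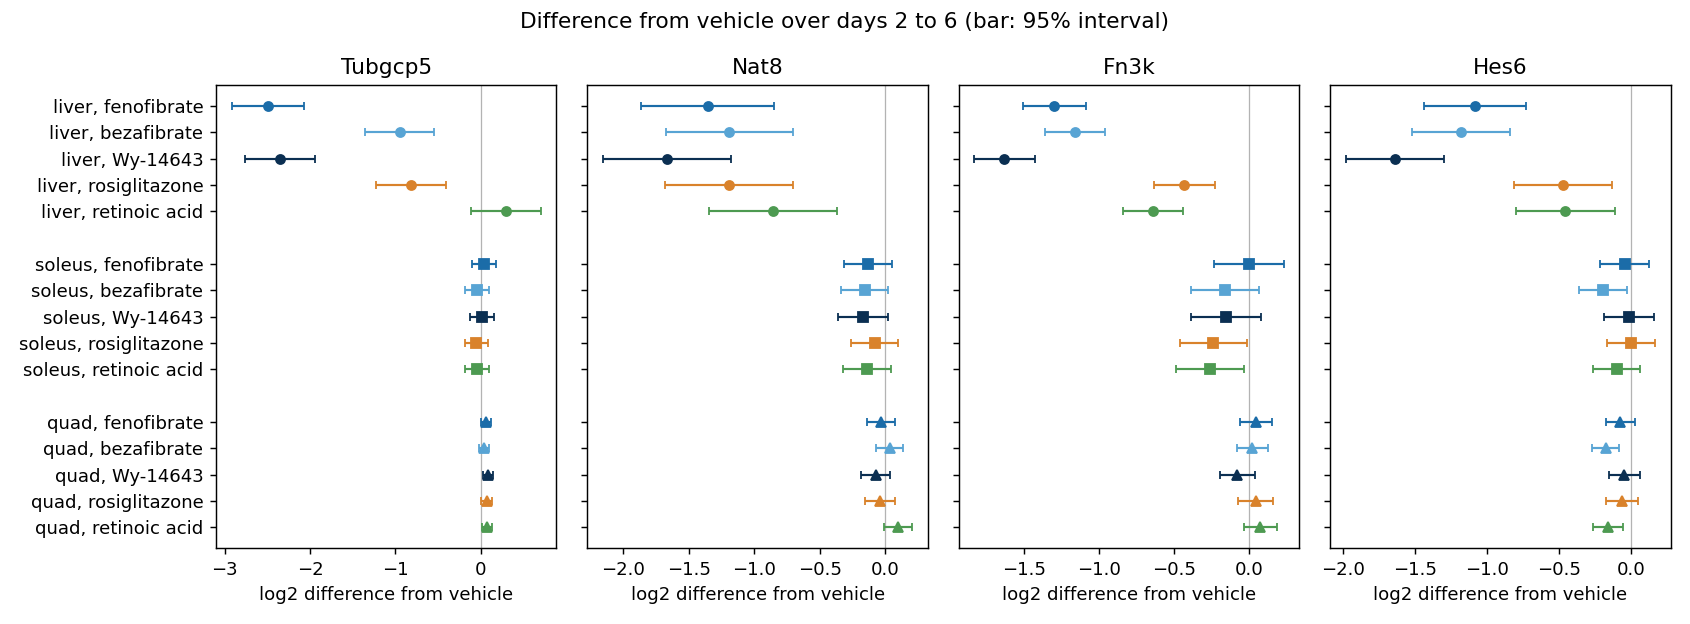
Difference from vehicle over days 2 to 6 in log2 units (x axis, with its own range for each gene) for each tissue and compound (y axis); bars are 95% intervals. Liver points (circles) of the PPARA agonists lie left of 0 for all 4 genes, from -0.95 to -2.49, and muscle points (squares and triangles) lie between -0.26 and 0.10.

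EDL arrays had lower doses and the pool as their sole reference, and between 33.9% and 47.1% of all features differed from the pool, so little can be read from a call there (34.6% with fenofibrate, 33.9% with bezafibrate, 47.1% with Wy-14643, 37.2% with rosiglitazone at 10 mkd and 40.4% with retinoic acid). At 50 mkd of fenofibrate Tubgcp5 was at 0.12 ± 0.03 and Hes6 at 0.25 ± 0.08 (n = 9 arrays). At 25 mkd of bezafibrate Fn3k was at -0.37 ± 0.10, from -1.93 to 0.01 over 9 arrays with a median of -0.13. At 10 mkd of Wy-14643 Nat8 was at 0.03 ± 0.04 and Fn3k at -0.17 ± 0.08 (n = 12 arrays). Apart from the lowest Fn3k array with bezafibrate, no agonist array of EDL lay below -0.80 for any of the 4 genes.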

How the data were processed

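The deposited series table holds 484 arrays and 23653 probes as the authors' log10 ratios, with scale and direction inferred from the values; how the authors corrected background or normalized, and with which tools, is not given in the sources used here. Of all values 0.91% were missing and 699 stood at the 100-fold limit. Values were multiplied by 3.32 to log2. Per the platform annotation, 15260 probes had 1 gene, 17 several and 8376 none; probes of a gene were averaged, giving 18603 features.

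Groups came from the labels, with 1 rat per array. Limma 3.58.1 (R 4.3.3) was fitted per tissue on compound and day together, over features with values in at least 80% of arrays, with Benjamini-Hochberg adjustment over all features and a threshold of 0.05. Day differences were averaged with equal weight. Vehicle correlations used permutation tests (scipy 1.17.1). On data simulated for the liver agonist comparison over 18403 features, 98% of 50 genes changed by -0.5 and 100% of 50 changed by -1.0 were recovered. The number of arrays limits the precision.

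Members and gene lists were chosen with earlier results of these data known. Named genes were the members, the 3 genes most like each, and up to 4 genes per list and liver comparison with the smallest adjusted p; other listed genes named were chosen after their values were seen. Upstream sequences and positions are RefSeq's on GRCr8. Alternatives were array medians subtracted, equal array spread, array weights, complete values, a robust variance prior, the ratio to the pool, each Fn3k probe, and leaving out days, doubted arrays or single rats.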

Additional observations from a re-analysis of the deposited data

Results flagged for a closer look

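Of 180 groups of 4 to 10 arrays of a gene, tissue, compound and day, 18 held an array far from the others by Dixon's criterion, where chance gives about 1 in 20. Liver groups held 2 or 3 treated or at least 14 vehicle arrays and so were not tested, and all 18 were in muscle. For Fn3k in quad they were fenofibrate rat 1148 (day 3) at 0.25 and rosiglitazone rat 1380 (day 5) at 0.19. For Fn3k in soleus they were rosiglitazone rats 1367 (day 2) at -0.73, 1372 (day 3) at 0.39 and 1383 (day 6) at 0.10. For Hes6 in soleus they were fenofibrate rat 1149 (day 4) at -0.054 and retinoic acid rats 1316 (day 3) at 0.17 and 1322 (day 5) at -0.75.

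For Tubgcp5 in quad, bezafibrate rats 1261 (day 4) at 0.14 and 1266 (day 5) at -0.060, fenofibrate rat 1145 (day 3) at 0.50 and Wy-14643 rat 1199 (day 2) at -0.18 stood apart. Bezafibrate rat 1256 in quad (day 2), an array of wide spread, stood apart for 3 genes, with Nat8 at 1.42, Hes6 at -0.65 and Tubgcp5 at -0.35. Retinoic acid rat 1321 in quad (day 5) had Nat8 at 0.95 while the other 3 rats lay between -0.09 and -0.02. Vehicle rat 1034 in soleus (day 4) had Nat8 at 2.28 and Tubgcp5 at 1.23. In both of these arrays the hepatocyte markers stood above their day, by 2.17 and 4.70 log2 units, and their part in these values was not tested.

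For Tubgcp5 in liver, the slope of the agonist mean was -0.41 log2 units per day (limma, adjusted p = 0.020), where 0.838% of all features passed. It comes from the agonist livers that chose the gene. The call ended without day 2, day 3 or day 6, without Wy-14643 rat 1197 and under equal array spread.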

How the results depend on the processing

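No difference of the 4 genes changed sign with loss or gain of a call under any alternative run. Equal array spread moved the liver values of Tubgcp5 to -1.495 (agonist mean), -1.84 (fenofibrate) and -1.85 (Wy-14643) and that of Hes6 with Wy-14643 to -1.30. Under it the calls ended on Hes6 with rosiglitazone (-0.32) and retinoic acid (-0.26), the Tubgcp5 slope (-0.30) and the fibrate mean minus Wy-14643 for Fn3k (0.32). Array weights ended Hes6 with rosiglitazone (-0.24) and brought in the fibrate mean minus Wy-14643 for Tubgcp5 (0.61) and Hes6 (0.52). Without single days, Hes6 with rosiglitazone was not called (day 2 -0.42, day 4 -0.36, day 5 -0.50), nor Hes6 with retinoic acid (day 3 -0.24, day 4 -0.42, day 6 -0.48), Nat8 with retinoic acid (day 3 -0.67), the Tubgcp5 slope (day 2 -0.43, day 3 -0.40, day 6 -0.34) or Fn3k, fibrates minus Wy-14643 (day 2 0.37, day 3 0.33). Tubgcp5, fibrates minus Wy-14643, was called without day 4 (0.68). Without the doubted arrays Hes6 with rosiglitazone was at -0.32. In muscle the ratio to the pool brought in Nat8 in soleus (-0.15) and, in quad, Tubgcp5 (0.066) and Hes6 (-0.086). On day 4 in soleus Nat8 was low against the pool with vehicle too (median -0.50), beside medians of -0.52 to -0.69 with the agonists. The pool call on Nat8 takes in that shift and is not a difference from vehicle. Nat8 in soleus was also called without the doubted arrays (-0.13), and Tubgcp5 in quad without day 2 (0.11) or day 5 (0.088). With 1 of the Fn3k probes alone, Fn3k with retinoic acid in soleus was called (-0.37). Leaving out 1 rat gave -0.61 to -0.32 for Hes6 with rosiglitazone, -0.62 to -0.25 for Hes6 with retinoic acid, -0.43 to -0.38 for the Tubgcp5 slope, and for fibrates minus Wy-14643 0.56 to 0.71 (Tubgcp5), 0.33 to 0.46 (Fn3k) and 0.46 to 0.57 (Hes6). The cause was not tested.

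The share of all features called ran over the alternatives from 0.0218% to 5.89% for the agonist slope, 14.6% to 40.7% for bezafibrate, 12.5% to 36.5% for fenofibrate minus bezafibrate, 4.16% to 22.6% for fibrates minus Wy-14643, 14.0% to 31.3% for rosiglitazone and 21.4% to 45.5% for retinoic acid in liver, 0.484% to 14.7% and 0.239% to 18.5% for the agonist mean in soleus and quad, and 0.049% to 0.398% for soleus minus quad. With the rat as a replicate block over 111 rats with both muscles, soleus minus quad was -0.080 for Tubgcp5, -0.076 for Nat8, 0.0061 for Fn3k and 0.093 for Hes6 (adjusted p from 0.58 to 0.99), and no call changed; same-rat arrays had a correlation of 0.074.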
